A study of Mus musculus with 4 samples.

Results

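The expression of 9 named genes of the organic anion and cation transporter families was examined in liver. The mice were made obese by diet (DIO) and treated with galanin-like peptide (GALP), a neuropeptide of the hypothalamus. The genes were Slco1a1, Slco1a4, Slco1b2, Slco2a1, Slco2b1, Slc22a7, Slc22a26, Slc22a27 and Slc22a30, and every non-control probe that carried one of these names on the array was taken. This gave 12 probes for 8 of the 9 genes, out of 41174 probes. Slc22a27 had no probe under its name or under its RefSeq accessions, so no value is given for it. The list was drawn up with the GALP over control ratios of these genes known. The ratios below are therefore a description of the members and carry no test.

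Male C57BL/6 mice, bought at 8 weeks of age, ate a high-fat diet for 14 weeks and weighed at least 40 g. All were first acclimatized with daily intranasal saline. While the high-fat diet continued, they received 2 µL by the intranasal route once daily for 11 days, either 1 nmol of GALP or saline. The GALP was dissolved in saline with 5% α-cyclodextrin. Liver RNA was pooled from 4 GALP mice that had lost more weight (the greater weight loss pool), from 4 GALP mice that had lost less (the less weight loss pool) and from 8 saline mice (the control pool). All groups shared the strain, the sex and the diet. The methods name the control as saline and do not say whether it held α-cyclodextrin, so GALP and α-cyclodextrin may not be separable. Both GALP pools were set against the control pool on dual-colour arrays. Each had 2 arrays, with the Cy5 and Cy3 dyes exchanged, and the 4 arrays lay on 1 slide. The labels also give the control channel a weight loss group, but the methods describe a single control pool. It was treated as 1 sample, so no SD or test holds the spread of the control. Every mean ± SD below is over n = 2 GALP pools, on the log2 scale of GALP over control. Pooling hides the spread between mice.

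Organic anion transporting polypeptides (the Slco genes) and the organic anion and cation transporters of the Slc22 family are membrane proteins that carry bile acids, steroid conjugates, prostaglandins, drugs and other charged molecules into cells. In the liver, several of them sit on the blood-facing side of the hepatocyte and set how fast such compounds leave the blood. Slco1a1 is known to be higher in the livers of male mice and Slco1a4 in those of female mice. The descriptions in the array files name the Slco members and Slc22a7 as anion transporters and Slc22a26 as a cation transporter.

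The members lie in a few places in the genome. Slco1b2, Slco1a4 and Slco1a1 belong to one cluster on chromosome 6, together with Slco1c1, Slco1a6 and Slco1a5. Slc22a26, Slc22a27 and Slc22a30 belong to another on chromosome 19, together with Slc22a19, Slc22a28 and Slc22a29. Genes of such clusters are similar in sequence, and how far a probe also binds the RNA of a neighbour was not tested.

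The sequences of the probes that the largest ratios rest on are shown first, as the first 30 of their 60 bases, since Slco1a1 and Slc22a26 each had a bright and a dim probe that read different stretches of the gene. Positions are on mm9, the build of the array files. The brighter Slco1a1 probe lay at chr6:141857034-141857092 and the dimmer one at chr6:141857413-141857472. The Slc22a7 probe lay at chr17:46569272-46569331. The brighter Slc22a26 probe lay at chr19:7856477-7856536 and the dimmer one at chr19:7855791-7855850. All 5 are on the minus strand. No annotation of that build was used here, so the exons they read are not given.
Slco1a1 brighter probe: ctgaatttatccttcaatgttggaggtatt
Slco1a1 dimmer probe: ccaagttcgagaacgatggagaactgaaaa
Slc22a7 probe: cctgtgtttatccagtctccaaaaacagga
Slc22a26 brighter probe: attctaggaatatttgtctcaactccaatc
Slc22a26 dimmer probe: ccccctgcaaaataagaaagctgcaaaaga

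Slco1a1 and Slc22a7 were lower after GALP in both pools, and Slc22a26 had higher signals on all 4 arrays. The other 5 genes with probes lay closer to the control. Counts used the rule of the study's methods, read strictly. All 4 arrays had to share a direction and to reach p under 0.01 in the error model of the Feature Extraction software, and both pools had to pass 1.5-fold upward or 0.75-fold downward. By this rule, 2 of the 12 member probes were called lower (the brighter Slco1a1 probe and the Slc22a7 probe), where 0.132% of the 41037 probes with a value on all 4 arrays were called lower. No member probe was called higher, where 0.0585% of all probes were. The members were chosen on this contrast, so nothing is read from these shares. Without the p-value the rule called 2 member probes higher, both of Slc22a26, and 2 lower, where 0.375% and 0.877% of all probes were called. Limma with Benjamini-Hochberg adjustment over the 41037 probes called 0 (0%) in either direction at 0.05. Before adjustment, 2049 probes (4.99%) were higher and 2710 (6.6%) lower at that threshold.

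**Figure D1:**
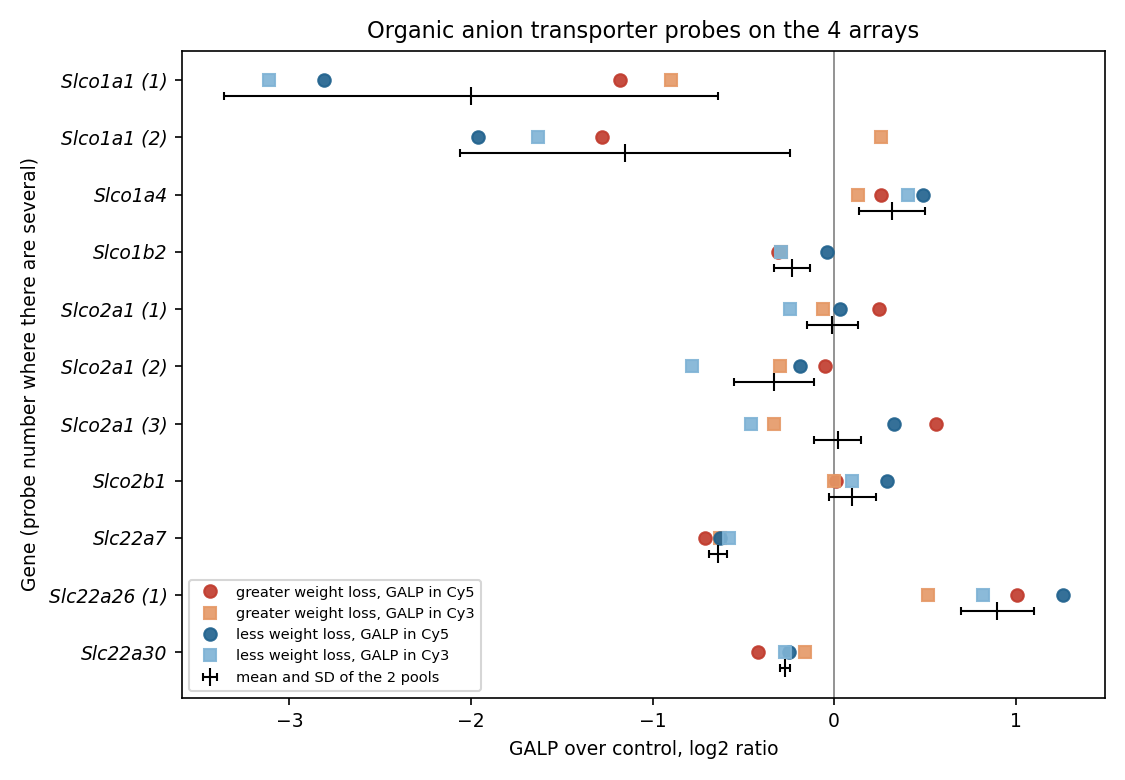
The x axis gives the GALP over control log2 ratio of 11 member probes, with 1 point for each of the 4 arrays. Circles are arrays with GALP in Cy5 and squares arrays with GALP in Cy3, and the black bars give the mean and SD of the 2 pools. The brighter Slco1a1 probe, from -3.11 to -0.90, and the Slc22a7 probe, from -0.71 to -0.58, lie below 0 on all 4 arrays. The dimmer Slc22a26 probe, which was not above background, is not drawn. Where a gene has several probes, they are numbered from the brightest.

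Slco1a1 encodes Oatp1a1, which takes up bile acids and steroid conjugates into hepatocytes. On the brighter probe, the processed signal was 285 for GALP and 645 for the control on the greater weight loss array with GALP in Cy5, and 261 and 488 on its dye swap. In the less weight loss pool it was 87.1 against 611, and 76.0 against 654 on the dye swap. Every GALP signal was below every control signal, and the signals of the less weight loss pool were the lowest. The log2 ratios were -1.18 and -0.90 in the greater weight loss pool and -2.81 and -3.11 in the less weight loss pool. The pools thus stood at 0.486 and 0.129 of the control, and the mean was -2.00 ± 1.36. Among the 14453 probes well above background in all 8 channels, its mean was the 4th lowest. Another background correction (normexp with an offset of 50) gave -0.80. It changed the background model, the offset and the dye normalization together, and their separate parts were not tested. In such pooled tissue, fewer cells that express a gene and less RNA per cell cannot be told apart.

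The 2 pools differed for Slco1a1 by more than the dyes did. The ratio of the greater weight loss pool exceeded that of the less weight loss pool by 1.92, while the dye orientations of a pool differed by -0.28 and 0.30. A difference of at least this size occurred in 0.367% of the 14453 probes, whose median difference between pools was 0.10 in size. With normexp it was 0.49. With 1 pool for each weight loss group the difference has no replicate, and it could not be tested.

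The dimmer Slco1a1 probe gave less even values. Its GALP signals were 29.1 and, on the dye swap, 162 in the greater weight loss pool, and 21.2 and 31.0 in the less weight loss pool. The control signals on the same arrays were 70.5, 135, 82.8 and 95.7. GALP was lower on 3 arrays, while the dye-swap array of the greater weight loss pool was high in both channels and carried no outlier mark. The GALP channel was well above background on that array only. The log2 ratios were -1.28 and 0.26 in the greater weight loss pool and -1.96 and -1.63 in the less weight loss pool, with a mean of -1.15 ± 0.91 and of -1.54 without the spot that was high in both channels. With normexp the mean was -0.08. In the less weight loss pool the GALP channel was at background on both arrays, and the signal was at least 2.38-fold lower than in the control. Such limits compare the mean of the measured side with a floor for the other, after scaling of the processed signals between arrays (Aquantile). The floor was the lowest signal well above background in that channel, or the probe's own signal where that was higher. The limit of 2.38-fold fell to 1.14-fold with normexp signals.

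**Figure D2:**
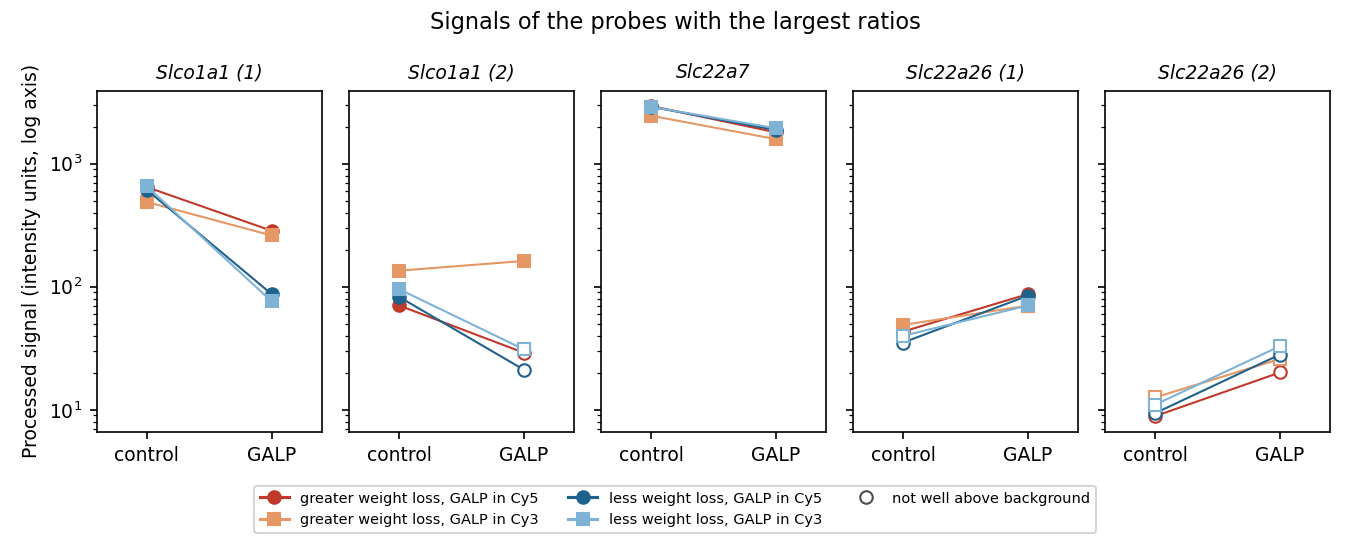
Processed signals (intensity units, log axis) in the control and GALP channels for the 2 Slco1a1 probes, the Slc22a7 probe and the 2 Slc22a26 probes, where each line joins the channels of 1 array and open symbols are not well above background. Lines fall on all 4 arrays for the brighter Slco1a1 probe and Slc22a7, and rise on all 4 for both Slc22a26 probes, the dimmer of which is open throughout.

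Slco1a4 encodes Oatp1a4, a transporter of organic anions and cardiac glycosides, and lies near Slco1a1 in the cluster. Its GALP signals were 2190 and 1595 in the greater weight loss pool and 2405 and 1958 in the less weight loss pool, against control signals of 1829, 1461, 1710 and 1476. GALP was the higher channel on all 4 arrays, but the ranges of the channels overlapped. This gave log2 ratios of 0.26, 0.13, 0.49 and 0.41, with a mean of 0.32 ± 0.18, and no array reached a p-value of 0.01. A mean at or above this was found in 3.89% of the 14453 probes.

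Slco1b2 encodes Oatp1b2, an uptake transporter of the hepatocyte for bile acids, bilirubin conjugates and statins. It gave GALP signals from 47058 to 77309 and control signals from 57689 to 79476, which overlapped. The log2 ratios were -0.31 and -0.29 in the greater weight loss pool and -0.04 and -0.29 in the less weight loss pool, with a mean of -0.23 ± 0.10. The 3 measured genes of the cluster on chromosome 6 therefore did not share a direction: Slco1a1 was called lower, while Slco1a4 and Slco1b2 did not pass the rule and had means on opposite sides of 0. Of their neighbours, Slco1c1, Slco1a5 and Slco1a6 were at background in all 8 channels on their brightest probe.

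Slco2a1 encodes the prostaglandin transporter, and its 3 probes did not have the same sign. The probe that was brightest gave log2 ratios of 0.25 and -0.06 in the greater weight loss pool and 0.03 and -0.24 in the less weight loss pool, with a mean of -0.01 ± 0.14. The other 2 probes had means of -0.33 ± 0.22 (-0.04 with normexp) and 0.02 ± 0.13. For the last of these, the ratio was 0.56 and 0.33 with GALP in Cy5 but -0.33 and -0.46 with GALP in Cy3, so its sign followed the dye. The brightest probe was likewise above 0 with GALP in Cy5 and below 0 with GALP in Cy3, by smaller amounts. Slco2b1, an uptake transporter of sulfated steroids found in many tissues, had GALP signals from 8739 to 11601 and control signals from 8762 to 9922. Its mean was 0.10 ± 0.13, within the spread of the pools.

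Slc22a7 encodes Oat2, which carries organic anions and nucleotides across the hepatocyte membrane. Its GALP signals were 1798 and 1583 in the greater weight loss pool and 1877 and 1941 in the less weight loss pool. The control signals on these arrays were 2941, 2452, 2900 and 2895. All GALP signals lay below all control signals, and the arrays were close to each other. The log2 ratios were -0.71, -0.63, -0.63 and -0.58, and the mean was -0.64 ± 0.05, or 0.643 of the control. Unlike Slco1a1, the pools lay close together, with a difference of -0.07. The mean was at or below this in 0.996% of the 14453 probes, and normexp gave -0.51.

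Slc22a26 was measured above background mainly after GALP. On its brighter probe the GALP signals were 87.1 and 70.2 in the greater weight loss pool and 84.5 and 70.4 in the less weight loss pool, against control signals of 43.2, 48.9, 35.2 and 39.9. The GALP signals lay above all control signals. They were well above background on 4 of 4 arrays, whereas the control was so on 1 of 4. The ratios on the log2 scale were 1.01, 0.52, 1.26 and 0.82, with a mean of 0.90 ± 0.20. In the less weight loss pool the control was at background on both arrays and the signal was at least 2.02-fold higher after GALP, or 1.07-fold with normexp signals. The probe was not called, since 2 arrays only, those with GALP in Cy5, had a p-value under 0.01. With normexp its mean was 0.11. The dimmer probe had GALP signals from 20.1 to 32.9 and control signals from 8.88 to 12.6, none of them well above background, so no fold is given.

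Slc22a30, a rodent gene of the organic anion transporter branch, had GALP signals from 8407 to 10521 and control signals from 9852 to 12473, which overlapped. Its log2 ratios were -0.42 and -0.16 in the greater weight loss pool and -0.25 and -0.27 in the less weight loss pool. The mean was -0.27 ± 0.03, below 0 in both pools, but no array had a p-value under 0.01. A pair of genes that lie between Slc22a26 and Slc22a30 was also measured. Slc22a28 had a mean of -0.33 ± 0.04 and Slc22a29 one of 0.18 ± 0.09, and neither was called. These neighbours were named after their values had been seen.

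**Figure D3:**
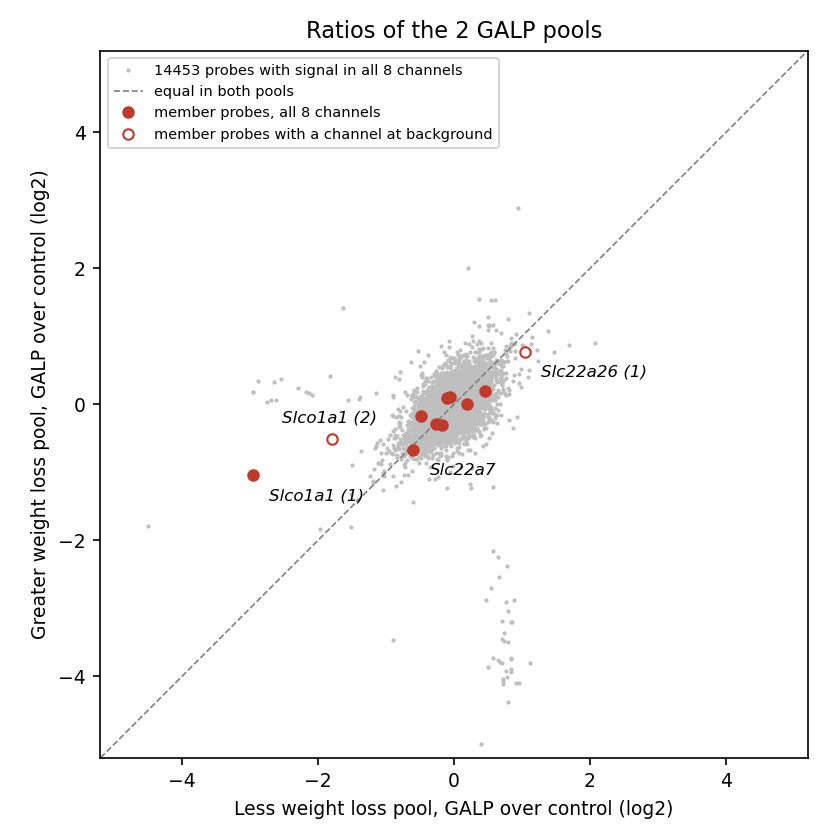
Log2 ratio of the less weight loss pool (x axis) against that of the greater weight loss pool (y axis) for the 14453 probes well above background in all 8 channels (grey) and for the member probes (red, open where a channel was at background). The dimmer Slc22a26 probe, with no channel well above background, is not drawn. Slc22a7 lies close to the line of equal ratios, while the brighter Slco1a1 probe lies well left of it, at -2.96 in the less and -1.04 in the greater weight loss pool.

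The genes whose ratios were most like those of a member were found by the Euclidean distance over the 4 arrays, among the 14453 probes, for members measured in all 8 channels with a mean fold of at least 1.5 in size. No probe lay within 0.5 of Slco1a1. The nearest were the skeletal muscle genes Myh2, Cox8b and Tnnc2, at distances of 1.56, 1.68 and 1.74. These had ratios from -0.01 to 0.31 in the greater weight loss pool and from -3.05 to -2.51 in the less weight loss pool, so they were near the control in the pool where Slco1a1 stood at -1.04. These 3 genes were picked for their likeness, and other muscle genes were not counted. Slc22a7 had 160 probes within 0.5, of which Nudt7, Slc41a2 and Susd4 were nearest at 0.10, 0.12 and 0.13.

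The remaining transporter genes were compared through lists, with 1 probe for each gene (the brightest) and with signal on every array. None of their genes was called by the rule. Of 10 other Slco genes on the array only Slco3a1, a prostaglandin and thyroxine transporter, had signal on every array, at 0.26 ± 0.27. Of 20 other Slc22 genes, 10 had such signal, with a median of -0.08 and a range from -0.33 to 0.73. Their 4 lower and 0 higher at an unadjusted limma p under 0.05 compare with 12.4% and 7.84% of all probes with signal. The largest means in size were those of Slc22a21, a carnitine transporter, at 0.73 ± 0.58, and Slc22a5, the main carnitine transporter, at 0.38 ± 0.15. For Slc22a21 the control was well above background on 1 array only. It was at background on both arrays of the less weight loss pool, where the signal was at least 1.86-fold higher after GALP.

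Bile acid and efflux transporters were also close to the control. Of 17 such genes on the array, 15 had signal on every array, with a median of 0.02 and a range from -0.38 to 0.25. Abcg2, an efflux pump, was at -0.38 ± 0.02, and Abcc6, a pump of the basolateral membrane, at 0.25 ± 0.13. The main bile acid uptake transporter Slc10a1 (-0.12 ± 0.05) and the bile salt export pump Abcb11 (-0.18 ± 0.20), both chosen after their values had been seen, were not called. The 9 measured regulators of transporter genes, nuclear receptors and other transcription factors, had a median of 0.11 and a range from -0.40 to 0.23. The ends of this range were Nr0b2, a repressor of bile acid synthesis, at -0.40 ± 0.27 and Nr1i3, the xenobiotic receptor CAR, at 0.23 ± 0.17. The median of all probes with signal on every array was -0.02.

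**Figure D4:**
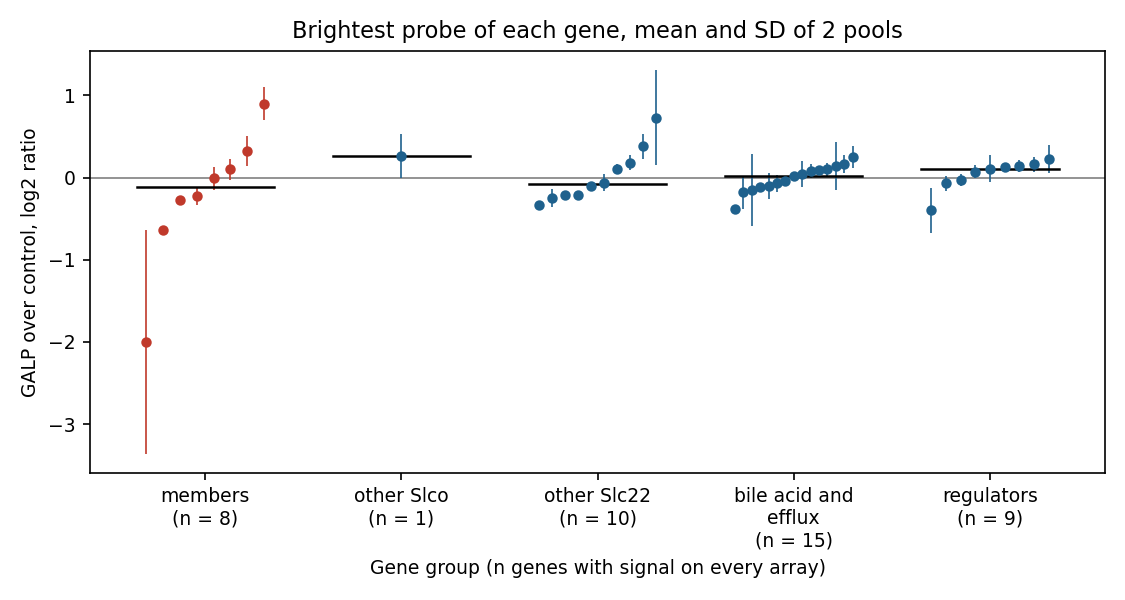
Mean GALP over control log2 ratio (y axis) of the brightest probe of each gene with signal on every array, for the 8 measured members (red) and 4 lists of related genes (blue), where error bars are the SD of the 2 pools and black lines are medians. The members, which were chosen with these values known, run from -2.00 (Slco1a1) to 0.90 (Slc22a26, whose control was at background on 3 of 4 arrays). The lists run from -0.40 to 0.73 (Slc22a21, whose control was well above background on 1 of 4 arrays).

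Sex-biased liver genes were counted because Slco1a1 and Slco1a4 belong among them. All 6 measured male-biased genes had means below 0, with a median of -0.34, but 3 of them were lower on all 4 arrays. In the greater weight loss pool Cyp7b1 was at 0.04 and Cyp4a12b at -0.01, against -0.59 and -0.45 in the less weight loss pool. The rule called 2 genes lower, Hsd3b5 (-3.12 ± 1.93) and Elovl3 (-1.20 ± 0.44). For Hsd3b5 the GALP channel was well above background on 3 of the 4 arrays only. The summed signal of the list was 84381 to 127929 in the control channels and 81451 to 117877 in the GALP channels. In such sums the brightest genes of a list weigh most. All 8 measured female-biased genes had means above 0, with a median of 0.45. Cyp2b13 was among those called higher, through 1 of its 2 probes (0.93 ± 0.42). Its brightest probe, which enters the median, was at 0.51 ± 0.27 and was not called. The summed signal of the 9 listed genes, 1 of them at background in all channels, was 73343 to 108513 in the control and 99548 to 127704 after GALP. The lists held no member, and their part in the values of Slco1a1 and Slc22a26 was not tested.

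Markers of the liver's cell types were set beside the members. The 3 measured hepatocyte markers had a median of 0.01 and a range from -0.06 to 0.05, and their summed signal was 86080 to 118942 in the control and 87254 to 125647 after GALP. The 6 sinusoidal endothelial markers had a median of 0.10 and a range from -0.12 to 0.74. The 6 Kupffer cell markers had a median of 0.21 and a range from -0.07 to 0.87. In each list 1 gene was called higher, Lyve1 (on 1 of its 2 probes) and Marco. The summed signal of the endothelial list was 21938 to 30604 in the control and 21348 to 26789 after GALP. That of the Kupffer cell list was 22314 to 24951 and 24917 to 30561. The 4 stellate cell markers had a median of 0.13 and a range from 0.05 to 0.66. The 4 bile duct markers had a median of -0.12 and a range from -0.46 to 0.10. Of 5 kidney tubule markers, 4 were at background in all 8 channels, and the other was the urate transporter Slc22a12.

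The promoters of the members with the ratios furthest from 0 each way are shown as the 250 bases before the RefSeq start of the gene (GRCm38.p6, minus strand), with motif matches in capitals. Slc22a7 had no entry. The motifs were TTCNNNGAA (bound by STAT5), GTTAAT (a half-site of HNF1) and AGGTCA (a half-site of nuclear receptors), searched on both strands of 300 bases, from 250 before to 50 after the start. They occurred in 8.3%, 7.1% and 16.3% of 32851 promoters. The Slco1a1 window at chr6:141946963-141947212 held AGGTCA 134 bases before the start on the reverse strand and 24 bases before it on the forward strand. The Slc22a26 window at chr19:7802668-7802917 held 1 STAT5 motif, 141 bases before the start. No matches overlapped.
Slco1a1 promoter: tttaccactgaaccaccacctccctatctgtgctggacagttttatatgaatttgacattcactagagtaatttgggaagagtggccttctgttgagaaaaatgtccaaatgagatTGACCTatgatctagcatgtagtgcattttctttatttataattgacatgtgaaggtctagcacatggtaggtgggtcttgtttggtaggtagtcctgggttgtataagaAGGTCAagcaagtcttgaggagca
Slc22a26 promoter: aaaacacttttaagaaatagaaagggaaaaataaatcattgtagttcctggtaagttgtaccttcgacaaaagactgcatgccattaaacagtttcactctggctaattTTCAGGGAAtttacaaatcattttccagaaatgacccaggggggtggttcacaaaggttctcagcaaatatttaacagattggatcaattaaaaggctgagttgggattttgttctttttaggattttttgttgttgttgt
Among the other members, Slco1b2 held 1 match of each motif, 2 of the 3 Slco2b1 windows held a STAT5 motif, and Slc22a27 held AGGTCA. Slco1a4, Slco2a1 and Slc22a30 held none of these letters in their windows. The called gene Slco1a1 and the uncalled Slco1b2 thus both held AGGTCA. A match describes the sequence only, and binding was not measured.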

How the data were processed

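Liver RNA pools were hybridised to 4 two-colour Agilent arrays with 43379 spots each. The authors' scanner images were quantified with Feature Extraction 12.0.3.1, per the file headers. It gave each channel a processed intensity after background subtraction and LOWESS dye normalization (the submitters' processing notes name version 11.0.1.1). The deposited log10 ratio of a spot is Cy5 over Cy3, and its deposited p-value is that of the software's error model on 1 array. The deposited series table held the same ratios as GALP over control for 100% of spots whose scanner ratio was not 0 (tolerance 0.001 log2), which settles the direction. On an array, 12828 to 15331 spots had a scanner ratio of 0, and 12766 to 15262 of these had another value in the series table.

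All ratios were put on the log2 scale as GALP over control. Outlier spots as marked by the software (232 to 319 on an array) were dropped, repeated spots were averaged by probe, and so were the 2 arrays with the same extracts, which count as 1 replicate. Of all spots, 40.5% to 46.7% were well above background in a channel, and 0 were saturated. The test was limma 3.58.1 (R 4.3.3) on the 2 pool ratios against 0, with 1 residual degree of freedom. It leaves out the spread of the control. The number of arrays limits the precision. Probe names are those of the array files, where 11 of the 12 member probes had signal on every array, and RefSeq (GRCm38.p6) gave promoters and gene order. The scripts used Python 3.11.15 with pandas 2.3.3 and matplotlib 3.10.9, and were tested on simulated data.

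The members and lists were chosen with earlier results of these data known. Some genes of the lists are not reported here. The text otherwise names all member probes, called genes of the lists, the 2 genes furthest from 0 in each transporter list, and the 3 genes nearest to a member whose mean fold was at least 1.5 in size. Alternatives were normexp with loess, centring, the series table, no outlier filter, a filter on dim probes, 1 dye orientation, 1 pool left out, other p-value rules and, for limma, a trend or a random block.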

Additional observations from a re-analysis of the deposited data

How the results depend on the processing

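Of the 12 member probes, 2 were called lower under the main setting and 0 higher. The count of lower calls was 2 or 3 under all alternatives run. The count of higher calls became 1 with GALP in Cy5 only and where 1 array of each pool had to pass the p-value, and 2 with no p-value. Without replicate 1 (the greater weight loss pool) or replicate 2 (the less weight loss pool) it was 0. Over all probes, 24 were called higher and 54 lower. Normexp with loess gave 9 and 26, GALP in Cy5 only 133 and 139, GALP in Cy3 only 140 and 156, 1 passing array of each pool 53 and 166, and no p-value 154 and 360. Without 1 pool, the counts were 96 to 120 higher and 149 to 163 lower, since fewer arrays had to pass. The median of other Slc22 genes was -0.08, and 0.05 with GALP in Cy5 only. The median of the regulators was 0.11, and 0.02 with normexp. Leaving out 1 pool, it was 0.02 (without replicate 2) to 0.09. Limma called 0 probes in either direction after adjustment (2049 and 2710 before it), but 42 and 53 with normexp and 1 lower with the filter on dim probes. With 4 arrays and the pool as a random block it called 39 and 67. That setting enters each array as its own value, with a correlation between arrays of a pool that all probes share. The cause was not tested except where the construction is given.

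The mean of each member probe kept its sign under its alternatives, except for 2 Slco2a1 probes (6 of 9 and 7 of 9 alternatives). The sizes did not hold with normexp, which gave -0.80 and -0.08 for the Slco1a1 probes (main -2.00 and -1.15), 0.11 for the brighter Slc22a26 probe (main 0.90) and -0.04 for an Slco2a1 probe (main -0.33). The value without 1 spot of the dimmer Slco1a1 probe was chosen after seeing the data. Signal over background limits the dimmer Slco1a1 probe and both Slc22a26 probes. No paired analysis was possible because each GALP pool has 1 sample after its dye swaps are averaged and the control is 1 pool.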
